A study of Mus musculus with 9 samples.

Results

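Deubiquitylases are the proteases that remove ubiquitin from proteins. Their genes were taken here as the protein-coding genes of the count table whose mouse symbol belongs to 1 of 6 families of these enzymes. The rule used symbols alone and no measured value, though earlier results of these data were known when it was set. This gave 78 genes of the 49315 in the table, of which 21811 are protein-coding. The ubiquitin-specific proteases (USP) with Cyld made up 51 of them, the ovarian tumour proteases (OTU) 12, the ubiquitin C-terminal hydrolases (UCH) with Bap1 5, the MINDY proteases 4, the Machado-Joseph proteases (MJD) 3 and the metalloproteases of the JAMM type 3. Their RNA was measured by polyA-selected RNA sequencing of whole brain from wild-type C57BL/6J male mice, 5 young (3 months in the sample labels, 3 or 4 months in the study's methods) and 4 old (33 months), with no treatment and no further genotype in either group. Each library was 1 mouse.

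Ubiquitin is attached to lysines of target proteins, singly or in chains, by a cascade of activating, conjugating and ligating enzymes, and the chain type helps decide whether the target goes to the proteasome, to the lysosome or into a signalling complex. Deubiquitylases work against this cascade. They recycle ubiquitin at the proteasome, edit chains and stop signals such as the inflammatory NF-kappaB pathway. In the brain the family is best known for Uchl1, a very abundant neuronal hydrolase, and for Atxn3, whose expanded human form causes a spinocerebellar ataxia.

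Counts per library ranged from 14229259 to 21150439. Y-linked Ddx3y had 1032 to 1418 counts in every library of these male mice. In young replicate 4, markers of activated microglia stood apart from the other young mice, with a mean log2 CPM (gene counts scaled to a common library size with TMM factors) of 4.23, where the remaining young libraries reached at most 2.58 and the old ones 3.88 to 4.30. A group of 4 ribosomal RNA-like genes took 1.5% to 4.38% of the counts but 12.1% to 47.7% of the TPM (a measure corrected for gene length) of a library. CPM was therefore used for the main comparison of ages, and TPM to order genes by level and as an alternative scale.

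Most deubiquitylases were expressed in brain. The median TPM over the 9 libraries was above 10 for 57 of the 78 genes, above 100 for 3 and under 1 for 6. Uchl1 was the highest, with a median TPM of 535 and a range of 468 to 850. It alone gave 20.3% to 23.6% of the TPM of all members. The hydrolase Otub1, which also blocks ubiquitin-conjugating enzymes, followed with a median of 170 and a range of 146 to 238, then Usp22, the histone deubiquitylase of the SAGA complex, with 113 and a range of 99.8 to 168. The ranges of Otub1 and Usp22 overlapped, while that of Uchl1 lay above both. Usp5, which takes apart free ubiquitin chains, had a median of 89.7. In the smaller families the highest members were Josd2 with 51.1 in the MJD family, Mindy2 with 31.4 in the MINDY family and Brcc3, the K63-specific protease of the BRCA1-A and BRISC complexes, with 10.9 in the JAMM family.

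**Figure D1:**
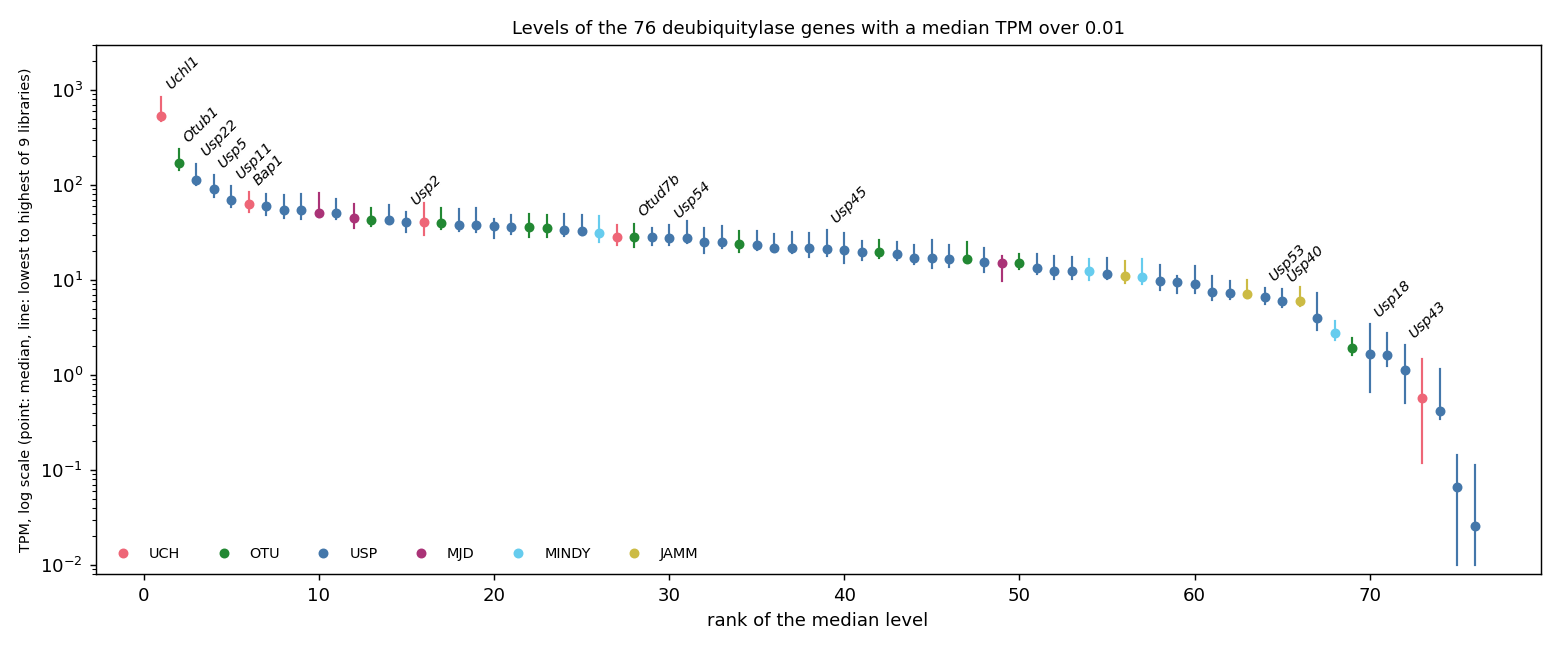
Median TPM on a log scale (points) and lowest to highest of the 9 libraries (lines) for the 76 deubiquitylase genes with a median above 0.01, ordered by level and coloured by family. Uchl1 stands above all others at a median of 535, and Usp18 and Usp43 sit near the low end with medians of 1.68 and 1.14. Lines that reach the lower edge include libraries at 0.

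A total of 5 members failed the filter on low counts and were not tested. Usp26 had 8 counts over all 9 libraries, Otud6a 1, Uchl4 54, Usp44 18 and Usp9y 0. The Y-linked Usp9y was thus listed at 0 in libraries where Ddx3y was well covered. Its X-linked partner Usp9x, a large enzyme of neuronal trafficking, had a median TPM of 32.5.

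The age comparison used the quasi-likelihood test of edgeR over all 18492 genes kept by the count filter. A gene passed at an adjusted p under 0.05 (Benjamini-Hochberg over all of these genes). Of the 73 tested deubiquitylases, 8 passed (11.0%), 6 higher and 2 lower in old brain. The same share of all tested genes passed, 11.0% (2031 genes), with 6.09% higher and 4.89% lower. Among tested protein-coding genes, the type all members belong to, 12.9% passed (7.09% higher and 5.77% lower). The share of members that changed was thus close to that of these backgrounds. Usp18, Usp54, Usp53, Otud7b, Usp2 and Usp40 rose, and Usp43 and Usp45 fell. Only Usp18 and Usp43 also exceeded an absolute log2 fold change of 0.58, where 2.50% of all genes did. On a log2(TPM + 1) scale, on which the median of all genes shifted to -0.14, limma called only Usp18 and Usp43. Values of old and young mice did not overlap for 10 members (6 higher and 4 lower in old), against 12.6% of all tested genes (6.50% higher and 6.08% lower).

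The sizes of the age differences were small. The median log2 fold change over the 73 members was -0.0099, beside -0.0001 over all tested genes, with 33 members above and 40 below 0. The median absolute log2 fold change was 0.058 for the members and 0.11 for all genes, and the median standard errors were 0.051 and 0.085. Of the members, 55 lay within 0.1 of no change on the log2 scale (75.3%, against 45.8% of all genes). These genes were more highly expressed than the tested genes as a whole, with a median log2 CPM of 5.80 against 3.95, which was not adjusted for. The summed CPM of all members was 5412 to 5482 in young and 5435 to 5480 in old mice, so that the ranges overlapped and differed by little.

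By family, 7 of 48 tested USP genes passed (14.6%, 5 higher and 2 lower) and 1 of 11 OTU genes (9.09%, higher). Of all tested genes 11.0% passed, and of tested protein-coding genes 12.9%. None of the 4 UCH, 3 MJD, 3 JAMM and 4 MINDY genes passed, while at an unadjusted p under 0.05 there were 2 UCH, 1 MJD, 0 JAMM and 1 MINDY genes, where 25.5% of all genes reached this level. The median log2 fold changes were -0.01 for USP, 0.0085 for OTU, -0.05 for UCH, 0.0038 for MJD, -0.07 for JAMM and 0.02 for MINDY. Summed CPM of the OTU genes was 687 to 710 in young and 712 to 735 in old mice, without overlap. The separation rested on Otud7b, and without it the sums were 590 to 615 and 598 to 628, which overlapped. That of the UCH genes, carried by Uchl1, was 549 to 595 in young and 521 to 550 in old mice, with a narrow overlap. Differences between families were not tested.

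**Figure D2:**
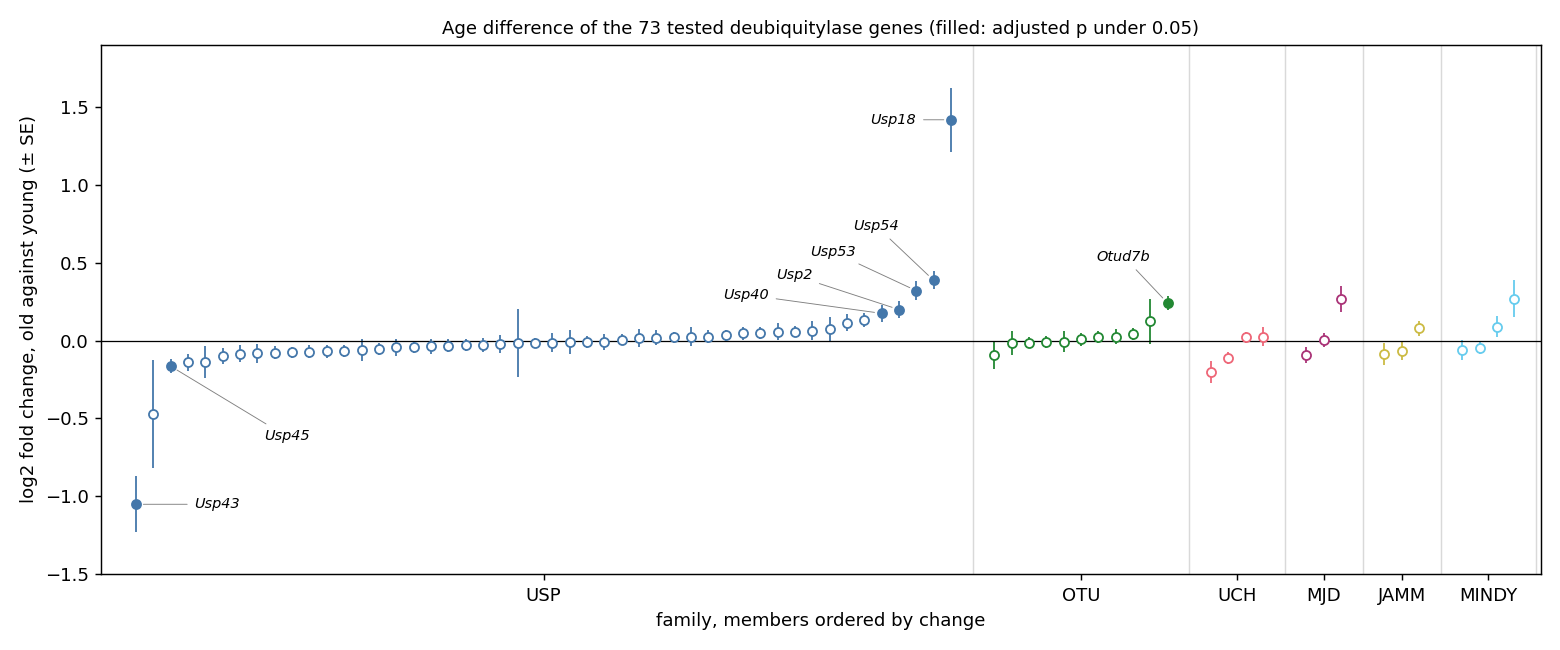
Log2 fold change of old against young (points) with its standard error (bars) for the 73 tested deubiquitylase genes, grouped by family and ordered by size. Filled points mark the 8 genes with an adjusted p under 0.05. Most points lie on the zero line, with Usp18 at 1.42 and Usp43 at -1.05 far from it.

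Usp18 showed the largest change among the members. It encodes the protease that removes ISG15, a ubiquitin-like modifier, and that damps the type I interferon receptor. It lies at chr6:121245906-121270917 on the plus strand (GRCm38). Its CPM was 0.68, 1.55, 1.37, 1.69 and 1.61 in the young mice (13 to 35 counts per library) and 3.45, 4.09, 3.34 and 3.93 in the old mice (58 to 67 counts). All old libraries lay above all young ones, and young replicate 1 was the lowest. The log2 fold change was 1.42 ± 0.20 (SE, edgeR adjusted p = 0.00032). It was 1.24 without young replicate 1 (adjusted p = 0.00040). A share of 4.44% of its exonic length is overlapped by Gm44148 on the opposite strand.

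The other genes of ISG15 modification were in a list of interferon-stimulated genes. Of its 24 tested genes 22 rose (91.7%, against 6.09% of all tested genes) and none fell, with a median log2 fold change of 0.96. Isg15 itself was 1.78, 1.72, 1.86, 1.45 and 2.22 CPM in young and 2.76, 4.51, 4.71 and 3.29 CPM in old mice (log2 fold change 1.08 ± 0.19, SE, edgeR adjusted p = 0.0015). Uba7, the E1 enzyme that activates ISG15, rose by 0.74 ± 0.13 on the log2 scale (adjusted p = 0.0019), and its E2 enzyme Ube2l6 by 0.87 ± 0.17 (adjusted p = 0.0033). For both the old libraries lay above the young ones. Herc6, the ISG15 ligase of mice, did not pass (log2 fold change 0.17, adjusted p = 0.28), and its values overlapped between the ages. Usp18 thus rose together with the modifier and with the first enzymes of its conjugation, which belong to the same interferon-regulated group by prior knowledge.

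**Figure D3:**
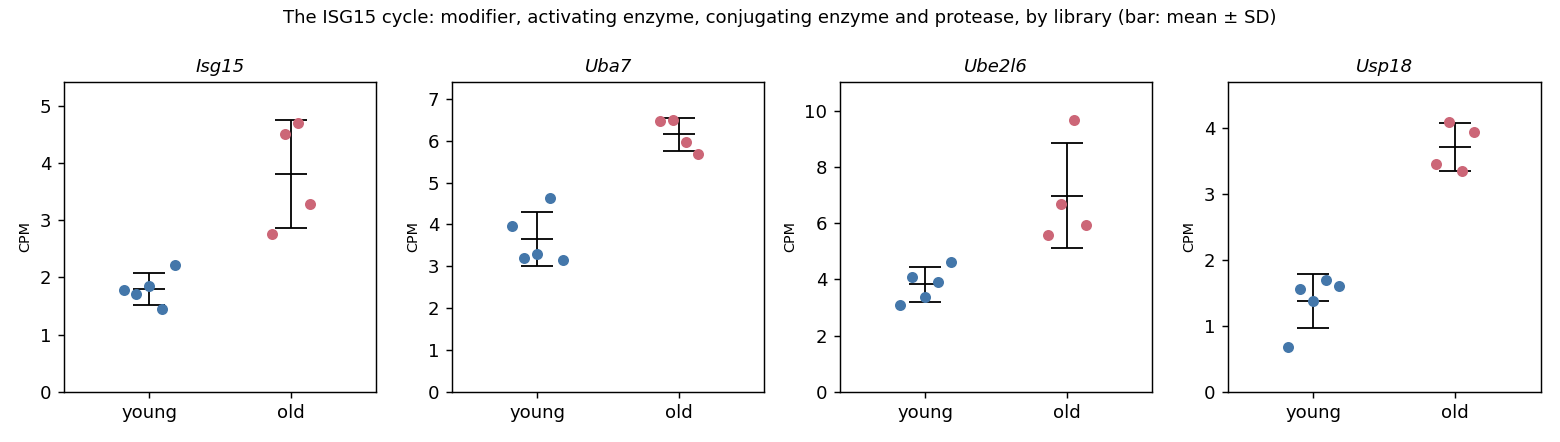
CPM by library for Isg15 (the modifier), Uba7 (its activating enzyme), Ube2l6 (its conjugating enzyme) and Usp18 (the protease that removes it). Points are mice, bars the mean ± SD. In every panel the 4 old libraries lie above the 5 young ones.

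Microglial markers moved with age beside these genes. Of 15 microglia markers 3 rose and of 12 tested activated microglia markers 4 rose, and none fell. Their summed CPM was 315 to 515 in young and 516 to 565 in old mice for the former and 1447 to 1954 against 2116 to 2296 for the latter. Of the activated markers, Ccl3 and Ccl4 were at 0 in at least 1 young library. Young replicate 4 was the highest young library in both lists and, with 1.69 CPM, also for Usp18. This Usp18 value was close to those of young replicates 5 and 2 (1.61 and 1.55 CPM) and below every old library (3.34 to 4.09 CPM). For Isg15, young replicate 4 was the lowest young library. Leaving out young replicate 4 gave Usp18 a log2 fold change of 1.51 (edgeR adjusted p = 0.00021). The part of the microglial markers in the result for Usp18 was not tested. In bulk tissue, a change in the number of cells of a type and a change in RNA per cell cannot be told apart.

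Usp43 showed the largest fall. This member of the USP family lies at chr11:67854523-67922153 on the minus strand. Its CPM was 2.93, 2.60, 2.89, 2.56 and 2.41 in young mice (39 to 56 counts) and 1.22, 1.34, 1.59 and 0.998 in old mice (17 to 29 counts). The lowest young value was well above the highest old value. The log2 fold change was -1.05 ± 0.18 (SE, edgeR adjusted p = 0.0013). The gene 9130017K11Rik on the opposite strand overlaps 12.8% of its exonic length, so that reads of both cannot be separated where strand was not used in counting. Its paralog Usp31, at a median TPM of 33.3, was at 147 ± 7.13 CPM (SD, n = 5) in young and 144 ± 8.25 CPM (SD, n = 4) in old mice, with a log2 fold change of -0.03 ± 0.05 (SE, adjusted p = 0.75). Markers of oligodendrocyte precursors also fell with age in 4 of 11 cases (36.4%, against 4.89% of all tested genes). Their summed CPM was 341 to 372 in young and 309 to 324 in old mice. Their part in the result for Usp43 was not tested.

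Usp53 and Usp54 are paralogs, the former known for its place at tight junctions and for hearing. Usp54 (chr14:20548912-20641063, minus strand) was 90.8, 81.3, 98.6, 96.7 and 101 CPM in young and 120, 118, 133 and 118 CPM in old mice. It rose by 0.39 ± 0.06 on the log2 scale (SE, edgeR adjusted p = 0.00073). Usp53 (chr3:122931493-122984510, minus strand) was 30.8, 29.4, 29.5, 32.5 and 31.8 CPM in young and 35.1, 39.1, 37.0 and 42.8 CPM in old mice, and it rose by 0.32 ± 0.06 (adjusted p = 0.0024). Neither gene overlapped between the ages. The ratio of Usp54 to Usp53 within a library was 2.77 to 3.34 in young and 2.75 to 3.59 in old mice, so the ratio overlapped. Exons of genes on the opposite strand overlap 7% of Usp54, and none overlap Usp53. Markers of endothelial and mural cells also rose with age in 6 of 12 cases (50.0%, against 6.09% of all tested genes) and none fell. Their summed CPM was 381 to 405 in young and 443 to 462 in old mice. Their part in the results for Usp53 and Usp54 was not tested.

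Otud7b, also called Cezanne, removes K11-linked chains and restrains NF-kappaB signalling. It was the only OTU gene that passed. Otud7b (chr3:96104527-96161129, plus strand) was 95.6, 93.1, 106, 92.6 and 94.6 CPM in young and 107, 114, 120 and 114 CPM in old mice, a log2 fold change of 0.24 ± 0.05 (SE, edgeR adjusted p = 0.0027). Young replicate 3 came close to the lowest old library. The brain-enriched paralog Otud7a was at 52.7 ± 2.40 CPM (SD, n = 5) in young and 53.7 ± 2.35 CPM (SD, n = 4) in old mice, with a log2 fold change of 0.03 ± 0.05 (SE, adjusted p = 0.78).

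Tnfaip3 and Cyld, the other members grouped here as restraining NF-kappaB, did not pass. Tnfaip3, the ubiquitin-editing enzyme A20 that NF-kappaB itself induces, was 4.60, 5.37, 4.67, 6.96 and 6.30 CPM in young and 5.42, 6.56, 5.20 and 7.34 CPM in old mice (log2 fold change 0.12 ± 0.14, adjusted p = 0.64). Cyld, which cuts K63-linked and linear chains, was 147 to 161 CPM in young and 140 to 157 CPM in old mice (log2 fold change -0.08 ± 0.04, adjusted p = 0.25). Of 12 tested NF-kappaB feedback targets 2 rose (16.7%, against 6.09% of all tested genes). They were Nfkbia, by 0.35 ± 0.07 (edgeR adjusted p = 0.0045), and Cxcl10, by 2.17 ± 0.35 (adjusted p = 0.00076). The latter is a strong interferon target as well. Sequences before RefSeq starts of Cyld and Tnfaip3 are shown because they hold the letters of an NF-kappaB site, the motif of the pathway these enzymes restrain. Neither gene passed the test. Both come from RefSeq (GRCm38.p6) and are written 5′ to 3′ on the strand of the gene, with NF-kappaB site and CCAAT matches on either strand in capitals. The Cyld sequence is chr8:88696778-88697027 on the plus strand, and the Tnfaip3 sequence is chr10:19015411-19015547 on the minus strand, its part outside annotated exons. The Cyld stretch ends at the base before the annotated gene start. The Tnfaip3 stretch ends before the RefSeq start at 19015410 but lies inside the annotated gene, since another transcript begins at 19015657 and has its first exon before the stretch.
Cyld: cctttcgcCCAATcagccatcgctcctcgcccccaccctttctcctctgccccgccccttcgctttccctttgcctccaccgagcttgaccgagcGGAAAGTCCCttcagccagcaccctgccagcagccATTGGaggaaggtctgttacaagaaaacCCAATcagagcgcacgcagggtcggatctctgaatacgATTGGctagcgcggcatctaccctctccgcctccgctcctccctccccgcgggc
Tnfaip3: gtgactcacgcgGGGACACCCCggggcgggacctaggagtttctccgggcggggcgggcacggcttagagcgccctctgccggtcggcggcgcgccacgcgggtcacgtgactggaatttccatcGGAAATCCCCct

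The remaining 3 members past the test changed by less than 0.21 on the log2 scale. Usp45, which acts on the nuclease that repairs crosslinked DNA, was 59.7, 56.5, 61.3, 60.6 and 58.0 CPM in young and 51.5, 54.9, 54.3 and 50.7 CPM in old mice and fell by 0.16 on the log2 scale (edgeR adjusted p = 0.020). Its paralog Usp16, a histone H2A deubiquitylase, was close to 0 at -0.02 (log2 fold change, adjusted p = 0.86). Usp2, whose transcript follows the circadian clock in many tissues, was 79.6, 76.8, 73.3, 79.7 and 68.9 CPM in young and 95.5, 82.5, 89.1 and 80.4 CPM in old mice (log2 fold change 0.20 ± 0.05, adjusted p = 0.026). The highest young and lowest old values of Usp2 were close together, and its paralog Usp21 was at -0.04 (log2 fold change, adjusted p = 0.68). Usp40 was 28.3, 25.1, 28.0, 28.8 and 27.7 CPM in young and 31.3, 30.5, 31.8 and 30.9 CPM in old mice (log2 fold change 0.17 ± 0.05, adjusted p = 0.040). Usp40 passed in 5 of 16 count-based alternatives, Usp2 in 12 and Usp45 in 14. Without old replicate 1 the adjusted p was 0.061 for Usp45, 0.075 for Usp2 and 0.075 for Usp40. Without old replicate 5 it was 0.069 for Usp45, and for Usp2 it was 0.065, 0.058 and 0.067 without young replicate 3, young replicate 5 and old replicate 4. Usp40 stayed past the threshold only without young replicate 4 (adjusted p = 0.036).

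**Figure D4:**
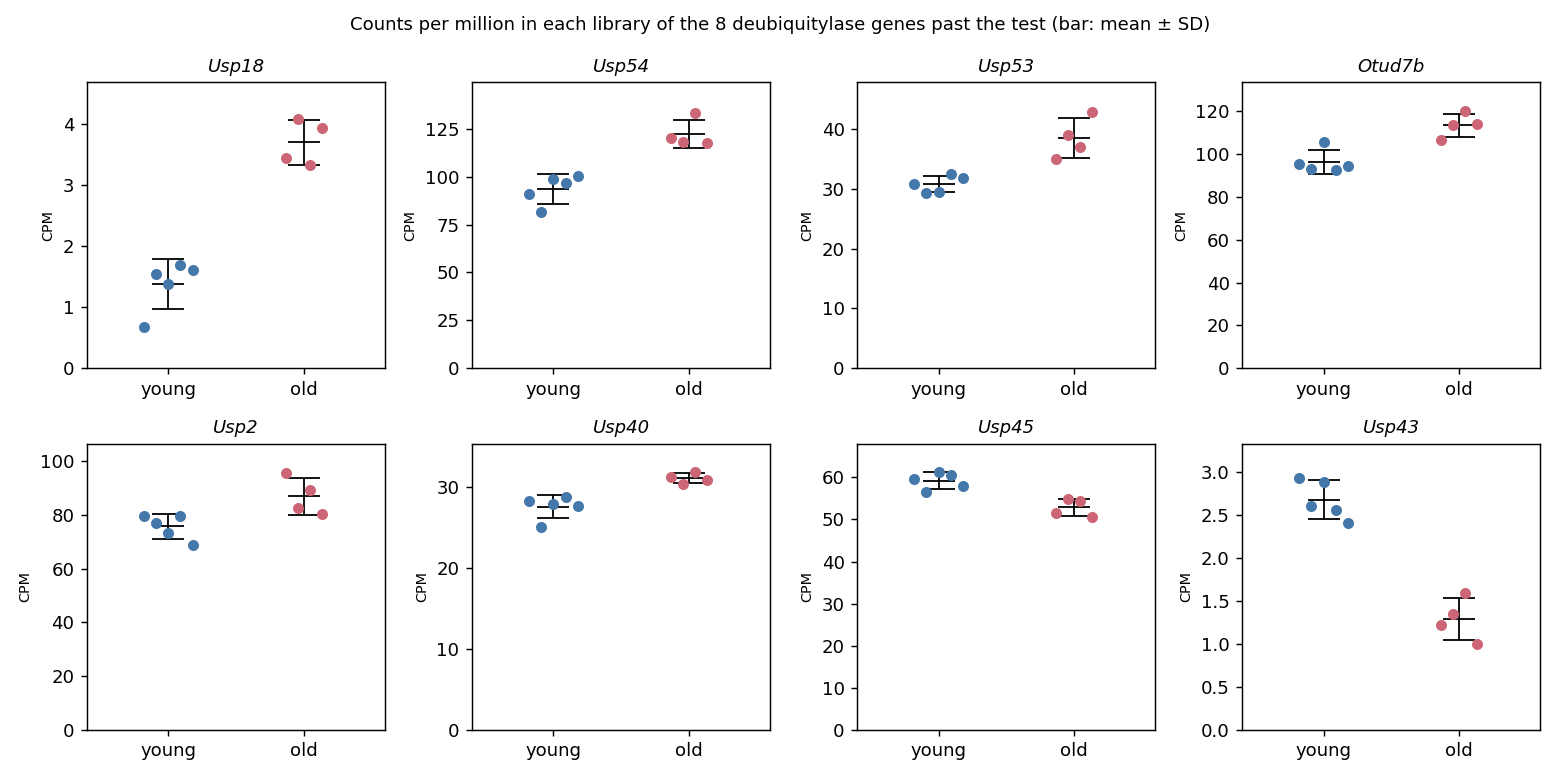
CPM by library of the 8 deubiquitylase genes with an adjusted p under 0.05, on axes that start at 0. Points are mice, bars the mean ± SD. Old and young mice do not overlap in any panel, while the distance between them is large only for Usp18 and Usp43.

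In the 5 paralog pairs that hold a member past the test, the ratio of CPM within each library is given as a description, since the pairs were taken up for the change in 1 of the genes. Its mean changed between young and old by -1.05 on the log2 scale for Usp43 to Usp31, 0.21 for Otud7b to Otud7a, -0.14 for Usp45 to Usp16, 0.25 for Usp2 to Usp21 and 0.07 for Usp54 to Usp53. Only the Usp43 to Usp31 ratio did not overlap between the ages.

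**Figure D5:**
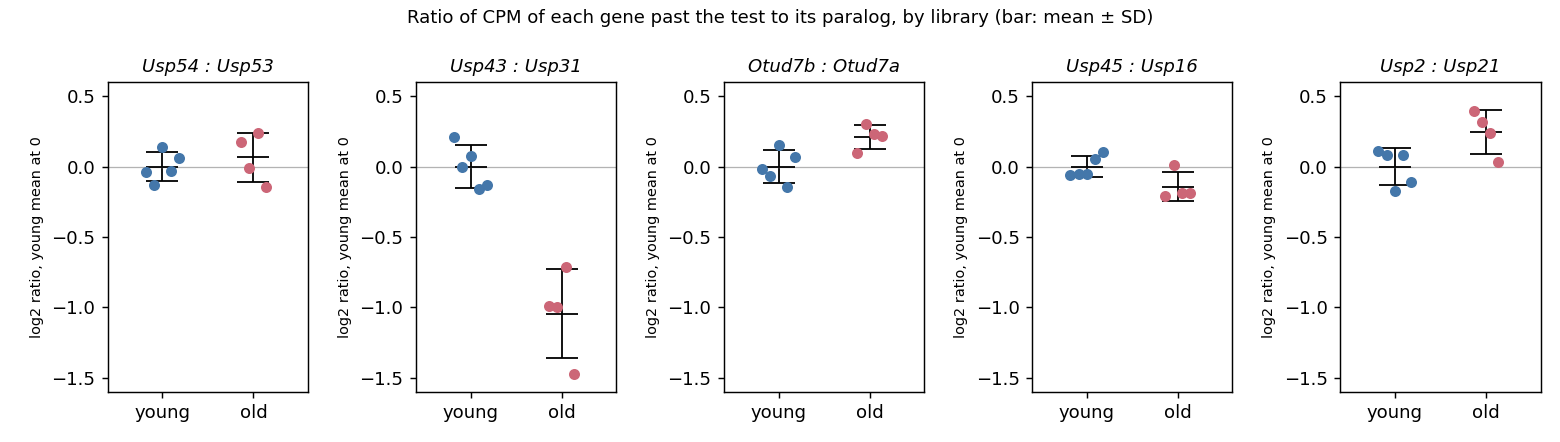
Log2 ratio of the CPM of each gene to that of its paralog in each library, with the mean of the young mice set to 0. Points are mice, bars the mean ± SD. The Usp43 to Usp31 ratio is separate between the ages, with a mean difference of -1.05, and the other 4 overlap.

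Members of the UCH family came close to the threshold on the low side. Uchl1 was 377, 424, 407, 393 and 390 CPM in young and 372, 372, 378 and 352 CPM in old mice, with a log2 fold change of -0.11 ± 0.04 (SE, edgeR adjusted p = 0.074). The ages overlapped narrowly. DESeq2's Wald test gave an adjusted p of 0.044. Uchl1 passed in only 2 of 16 count-based alternatives and in 0 of 9 fits with 1 mouse left out. The antisense Uchl1os overlaps 18.1% of its exonic length. Uchl3, which also processes ubiquitin precursors and NEDD8, was 18.3, 16.4, 17.5, 16.5 and 16.3 CPM in young and 15.4, 13.3, 14.8 and 15.5 CPM in old mice. It did not overlap between the ages, yet missed the threshold (log2 fold change -0.20 ± 0.07, edgeR adjusted p = 0.073). Uchl3 passed in 0 of 16 count-based alternatives, with an adjusted p of 0.117 in DESeq2's Wald test. The tumour suppressor Bap1, a histone H2A deubiquitylase, was at 0.02 ± 0.04 on the log2 scale (adjusted p = 0.75). Neuron markers fell in 3 of 12 cases (25.0%, against 4.89% of all tested genes) and none rose. Their summed CPM was 7421 to 7810 in young and 7063 to 7540 in old mice, which overlapped. Their mean log2 CPM was 8.93 to 8.99 in young and 8.78 to 8.90 in old mice, without overlap. Their part in the values of Uchl1 was not tested.

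Atxn3 in the MJD family was 31.8, 32.2, 28.7, 28.6 and 23.7 CPM in young and 33.9, 39.4, 31.4 and 35.7 CPM in old mice (log2 fold change 0.27 ± 0.08, SE, edgeR adjusted p = 0.055). Young and old libraries overlapped, and DESeq2's Wald test gave an adjusted p of 0.034. Atxn3 also passed the edgeR test without young replicate 1, young replicate 2 or old replicate 4 (adjusted p = 0.048, 0.036 and 0.032). It did not pass in the other fits with 1 mouse left out (edgeR adjusted p up to 0.14), and it passed in 6 of 16 count-based alternatives. Josd1 and Josd2 had log2 fold changes of 0.0038 and -0.09 (adjusted p = 0.97 and 0.27). The MINDY family, which prefers long K48-linked chains, had log2 fold changes from -0.06 to 0.27, the highest for Mindy4 (adjusted p = 0.17) at only 5.19 ± 0.66 CPM (SD, n = 5) in young and 6.26 ± 0.53 CPM (SD, n = 4) in old mice. In the JAMM family the endosomal Stambp and Stambpl1 were at -0.07 and -0.09 and Brcc3 was at 0.08, with no adjusted p below 0.32. Among the other USP genes with a mean log2 CPM of at least 1, the largest differences were those of Usp29 (-0.14 ± 0.05, adjusted p = 0.11), Usp49 (-0.14 ± 0.10, adjusted p = 0.45) and Usp48 (0.13 ± 0.05, adjusted p = 0.082). With 1 mouse left out, Usp29 passed in 1 of 9 fits, without young replicate 1 (-0.18, edgeR adjusted p = 0.036). Usp48 passed in 1 of 9, without young replicate 3 (0.16, edgeR adjusted p = 0.035). Each passed in 2 of 16 count-based alternatives. Other genes overlap 52.3% of the exonic length of Usp49 and 14.8% of that of Usp29.

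Functional groups were formed from textbook knowledge after the values were seen, and their counts are a description. Since 11.0% of all tested genes passed, a count of 0 says little in groups this small. None of the 10 tested histone H2A and H2B deubiquitylases passed, with log2 fold changes from -0.14 to 0.12, nor did the 6 tested X-linked members, from -0.07 to 0.08. Neither of the proteasome-bound members passed. Usp14, which trims chains at the 19S particle, was 96.2 to 102 CPM in young and 92.6 to 95.5 CPM in old mice without overlap, but the log2 fold change was only -0.07 ± 0.03 (adjusted p = 0.18), and Thoc1 on the opposite strand overlaps 26% of its exonic length. For Uchl5 the log2 fold change was 0.03 ± 0.06 (adjusted p = 0.84). Usp33, a regulator of receptor recycling, was 99.9 to 110 CPM in young and 96.9 to 103 CPM in old mice (log2 fold change -0.07 ± 0.04, adjusted p = 0.31), with 24.4% of its exonic length overlapped from the opposite strand. Zranb1, an OTU enzyme of K29- and K33-linked chains, was 74.9 to 79.8 CPM in young and 76.4 to 80.8 CPM in old mice (log2 fold change 0.02 ± 0.04, adjusted p = 0.74).

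In 3 lists of genes around the deubiquitylases, the share that passed is set beside the 11.0% of all tested genes. Of 33 tested partner subunits of deubiquitylase complexes 3 passed (9.09%), and the median log2 fold change was 0.0088. Atxn7l3b, related to the SAGA adaptor Atxn7l3, and G3bp2, the stress granule protein related to the Usp10 partner G3bp1, fell by 0.16 and 0.15 on the log2 scale (edgeR adjusted p = 0.0063 and 0.012), and the Bap1 cofactor Asxl2 rose by 0.14 (adjusted p = 0.0499). Of 15 tested genes in a list of further deubiquitylases and like-named or related proteins, which also holds Usp50, 2 passed (13.3%). Eif3f, a translation initiation subunit with a JAMM-like domain, rose by 0.20 (adjusted p = 0.0090) and Mpnd fell by 0.20 (adjusted p = 0.013). Of 17 proteases of ubiquitin-like proteins such as SUMO and NEDD8, 1 passed (5.88%), Ufsp1, which matures UFM1 and which fell by 0.34 (adjusted p = 0.017).

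Promoter entries of 250 bases before the start were searched for 4 motifs on both strands in 64 of the members, with 72 promoters between them. The core of the interferon-stimulated response element was found in 1.39% of these promoters and in 2.98% of all 32841. The NF-kappaB site was found in 5.56% and 7.25%, held by Cyld, Tnfaip3, Usp13 and Usp27x. The heat shock element was found in 1.39% and 0.466%, held by Uchl1, and CCAAT in 30.6% and 33.9%. Of the 8 members past the test, 4 had an entry (Usp2, Usp40, Usp45 and Usp54), and none of these held a match to any of the 4 motifs. The promoter of Usp40 is shown as an example of a member that rose without such a match. It is chr1:88008552-88008801 on the minus strand (RefSeq, GRCm38.p6), ending at the base before the annotated start.
Usp40: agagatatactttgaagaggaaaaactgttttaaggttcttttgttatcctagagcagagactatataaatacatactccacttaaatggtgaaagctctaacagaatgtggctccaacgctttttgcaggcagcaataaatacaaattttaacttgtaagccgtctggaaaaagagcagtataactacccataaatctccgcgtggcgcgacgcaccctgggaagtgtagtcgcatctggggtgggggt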

How the data were processed

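Brain RNA of 9 mice (5 young, 4 old) was measured by polyA-selected RNA-seq with reads of 150 bases. The authors trimmed reads with Trimmomatic 0.36, aligned them to Ensembl GRCm38 with STAR and counted uniquely mapped reads on exons with featureCounts (Subread 1.5.2). Counting by strand is stated for stranded libraries alone, and the kind of these libraries is not given in the sources used here. The counts as deposited by the authors are whole numbers per gene, not normalized. TPM values were deposited by the authors as well, and the gene lengths behind them are not given in the sources used here. A table of normalized counts was not used. Per-sample values without a listed sample (1 column per file) were left out. Symbols came from GENCODE M21, which named 49056 of 49315 genes and none for 259.

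Genes were filtered with filterByExpr (minimum count 10, minimum total 15), scaled with TMM and tested with edgeR 4.0.16 (robust quasi-likelihood fit, R 4.3.3), old against young, with Benjamini-Hochberg adjustment over 18492 genes. SE is the absolute log2 fold change over the square root of F. Alternatives used DESeq2 1.42.0 and limma 3.58.1, and a fit that was not robust was added after the data were seen. The study used DESeq2. Libraries of 1 age differed by more than sampling noise (chi-square per degree of freedom at least 4.04). Simulated counts of 18492 genes, 200 of them changed by a log2 fold change of 1, were drawn 5 times to check the fit. It called 81.0% to 85.5% of the changed genes, 5.81% to 8.89% of its calls were unchanged genes, and at most 2 genes were called when none was changed. The share of unchanged genes among the calls lay above the threshold of 0.05 in every run. Changes smaller than 1 were not simulated, while the median absolute log2 fold change of the members was 0.058.

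The members, lists and tests were chosen with earlier results of these data known. Genes were named if they passed the test, had the highest TPM of their family, were among the 5 largest remaining differences at a mean log2 CPM of at least 1, were fixed paralogs of a member past the test, or were Usp33, Zranb1, Usp14 or Uchl1. From each list up to 6 genes past the test were eligible. Other genes were named after their values were seen. The marker lists in the report were set beside members that changed in the same direction, and no cell type was assigned to a member. Marker lists not given in the report were astrocyte (0 of 10 past the test), oligodendrocyte (2 of 10 rose, 1 fell), immature neuron (1 of 8 fell) and blood (3 of 5 rose). Of all tested genes, 11.0% passed. Promoter entries were not used for 14 members.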

Additional observations from a re-analysis of the deposited data

Results flagged for a closer look

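For 6 of 42 sets of values (21 members in each age), 1 mouse lay far from the others of its group. This used Dixon's ratio of the gap to the group's range, where chance gives about 1 in 20. The ratio was computed on log2 CPM, while the values printed beside it are CPM, on which it would differ. In young mice, replicate 1 was low for Usp18 (ratio 0.766, 0.68 CPM against 1.37 to 1.69) and for Usp29 (0.728, 50.8 against 57.7 to 60.5 CPM), replicate 3 was high for Otud7b (0.758, 106 against 92.6 to 95.6 CPM), and replicate 2 was low for Usp40 (0.718, 25.1 against 27.7 to 28.8 CPM). In old mice, replicate 4 was high for Usp54 (0.839, 133 against 118 to 120 CPM) and low for Mindy4 (0.860, 5.47 against 6.42 to 6.59 CPM). Usp18, Otud7b and Usp54 stayed past the edgeR threshold with any 1 mouse left out, and Usp40 in 1 of 9 such fits. Usp29, which did not pass with all mice (log2 fold change -0.14, edgeR adjusted p = 0.11), passed in 1 of 9, without young replicate 1 (-0.18, adjusted p = 0.036). Mindy4 did not pass in any of the 9 fits, with an adjusted p of 0.12 without old replicate 4.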

How the results depend on the processing

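Usp18, Usp54, Usp43, Usp53 and Otud7b passed the test in all 16 count-based alternatives, with adjusted p of at most 0.0104. Usp45 passed in 14, Usp2 in 12 and Usp40 in 5. The number of members past the test (8, with 6 higher and 2 lower) was 2 (1 higher, 1 lower) with limma on log2(TPM + 1) or log2(TPM + 0.1), where the median over members was -0.16 and -0.17 and that over all genes was -0.14 on the first of these scales. It was 5 at an adjusted p under 0.01 (1 lower) and 2 with a fold change threshold of 0.58 (1 higher, 1 lower). Testing without a filter on low counts gave 11 members, 4 of them lower, and a median of -0.0202. With 1 mouse left out it ranged from 5 (without old replicate 1) to 9 (without young replicate 1), with 4 to 6 higher and 1 to 3 lower, and the median over members ranged from -0.0097 to 0.0030. Genes of the 5 pathway lists past the test numbered 30, and 18 and 17 on the log2(TPM + 1) and log2(TPM + 0.1) scales. The sign changed on these scales for Usp48 (-0.0330 and -0.0333), Zranb1 (-0.14 on both), Tnfaip3 (-0.0136 and -0.0228) and Otud7a (-0.14 on both), with no limma adjusted p under 0.05. Usp31 kept its sign on these scales (-0.19 on both). It ranged from -0.0571 to 0.0119 with 1 mouse left out and changed sign only without old replicate 1, with no edgeR adjusted p under 0.05. The cause of these sign changes was not tested.

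Whether the replicate numbers shared by both ages pair the mice could not be settled from only 4 numbers. Correlations of the deviations of mice with the same number were over 0.1 for 1 of 4. For young replicates 1 and 4 the closest old library was the one of the same number (r = 0.17 and 0.0884). Old replicate 4 was also the closest for young replicates 3 and 5. With the replicate number as a block, 8 members passed, Atxn3 among them (adjusted p = 0.037) and Usp40 not (adjusted p = 0.121). The fit that was not robust also gave 8. Depth limits the lowest members most. The standard errors were 0.35 for Usp50, 0.22 for Usp51, 0.20 for Usp18 and 0.18 for Usp43, beside a median of 0.051 over the members. Usp50, at a mean log2 CPM of -0.33, had a log2 fold change of -0.47 and did not pass (edgeR adjusted p = 0.425).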
